A study of Danio rerio with 18 samples.

Results

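The 6 genes described here encode the first steps of the cascade that melanopsin (Opn4) is known to drive: the Gq class alpha subunits gnaq, gna11a, gna11b and gna14, and the phospholipase C beta enzymes plcb3 and plcb4. They were taken by gene symbol from the count table and are 6 of its 31624 genes, of which 23818 had at least 1 read. The transcriptomes came from adult zebrafish of the Tübingen strain of about 1.5 years, in 6 groups of 3 libraries: eye, anterior brain and posterior brain of the opn4 double knockout (opn4 dko, opn4.1-/- and opn4xb-/-) and the same tissues of wild-type fish. Each library was made from the pooled tissue of 3 fish. All fish were kept on a light-dark cycle of blue light and dissected under blue light in the light phase. The anterior brain comprised the telencephalon with the pineal and parts of the epithalamus, thalamus and posterior tuberculum. The posterior brain comprised the midbrain, the hindbrain, the hypothalamus, the pretectum and the rest of these forebrain parts. Both knockout alleles were made with TALEN nucleases, chosen for the premature stop codons they left near the start of the coding sequence.

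Melanopsin is an opsin of the rhabdomeric kind. On illumination it activates a G protein of the Gq class, whose alpha subunit switches on phospholipase C beta. That enzyme splits the membrane lipid PIP2 into diacylglycerol and inositol trisphosphate (IP3), and in the photosensitive ganglion cells of the mouse retina the chain ends in the opening of TRPC channels. In mouse these cells are known to use Gnaq, Gna11 and Gna14 alongside each other, with Plcb4 as their main phospholipase C. The same enzymes also serve many other receptors, such as metabotropic glutamate and muscarinic receptors in brain neurons. Transcript levels of whole tissue therefore cover far more cells than those with melanopsin, and fewer cells of a type cannot be told apart from less RNA per cell.

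The libraries held 2186880 to 6946550 counted reads, so that 3 reads corresponded to 0.418 to 1.47 CPM, the reads of a gene scaled to a common library size. Wild-type eye replicate 3 stood apart. It had reads for 14577 genes, against 17604 to 20037 in the other 17 libraries, and 8.07% of the 11974 genes with 20 or more reads in both other wild-type eye libraries had at most 1 read in it. Most tests, pooled ratios and read shares of the wild-type eye are therefore also given without it. All eye libraries shared sequencing lane 7, while in each brain part replicate 1 of both genotypes was on lane 6 and the others on lane 5 (anterior) or lane 4 (posterior), so lane and tissue cannot be told apart for the eye. Photoreceptor markers (8 genes) summed to 31624 to 49261 CPM in dko eyes and 45174 to 47249 CPM in wild-type eyes, telencephalic markers (10 genes) to 1056 to 1255 CPM in dko anterior brains and 1039 to 1298 CPM in wild-type ones. Markers of midbrain and hindbrain (8 genes) summed to 186 to 223 CPM in dko posterior brains and 203 to 238 CPM in wild-type ones, against at most 6.96 CPM in any anterior brain library. These marker lists were thus each highest in the tissue they name, which did not hold for every list. Cerebellar granule cell markers (6 genes) summed to 1550 to 2085 CPM in dko eyes and 1587 to 1831 CPM in dko posterior brains. In wild-type fish they summed to 1568 to 1606 CPM in the eye and 1745 to 1843 CPM in the posterior brain. The pineal markers, given below, were highest in the eye.

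The knocked-out receptors were still transcribed in the eye. Transcripts of opn4.1 stood at 341, 411 and 515 CPM in dko eyes, against 351, 600 and 402 CPM in wild-type eyes. Those of opn4xb stood at 9.43, 8.22 and 9.502 CPM in dko eyes, against 21.4, 15.42 and 28.0 CPM in wild-type eyes. The opn4xb libraries did not overlap between genotypes, as was the case for 12.7% of all genes tested in the eye. The difference of -1.28 ± 0.47 (log2 fold change ± SE) had an adjusted p of 0.99 in edgeR's quasi-likelihood test (-1.03 and 0.74 without wild-type eye replicate 3). In the posterior brain opn4.1 had 1, 0 and 0 reads in dko against 5, 10 and 5 reads in wild-type libraries. The pooled wild-type-to-dko ratio was 21.3 (95% interval 3.40 to 882, for counting error only), which was not tested. Of all genes tested there, 15.6% did not overlap between genotypes. In the anterior brain the mean level of opn4.1 was not lower in dko than in wild-type fish. A premature stop codon does not remove the transcript by itself, so read counts do not check the loss of the protein.

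Among the alpha subunits, gnaq was expressed in both brain parts and had few or no reads in the eye. This gene encodes the founding member of the Gq class. In dko fish 13, 7 and 0 reads were counted in the eyes (2.61, 1.74 and 0 CPM), against 48.7, 31.1 and 24.6 CPM in the anterior and 23.6, 27.7 and 28.2 CPM in the posterior brain. In wild-type fish 0, 2 and 0 reads were counted in the eyes (0, 0.685 and 0 CPM), against 25.5, 28.7 and 38.3 CPM in the anterior and 18.3, 18.2 and 22.8 CPM in the posterior brain. Every eye library lay below every brain library.

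With 20 reads in the 3 dko eyes, gnaq was lower there than in the dko anterior brain (log2 fold change -4.49 ± 0.57, SE, adjusted p = 9.1e-07) and than in the dko posterior brain (-4.09 ± 0.57, adjusted p = 3.7e-06). Here and below, adjusted p is the Benjamini-Hochberg false discovery rate (FDR) of edgeR's quasi-likelihood test over all genes, and a gene is called where it is below 0.05. In wild-type eyes the 2 reads make a fitted fold change depend on the prior count, so the pooled reads are compared instead. The anterior-to-eye ratio was 123 (95% counting interval 33.9 to 1019.6) and the posterior-to-eye ratio 78.2 (21.4 to 649), both intervals covering counting error only. Both wild-type differences were called, with adjusted p = 1.9e-07 and 1.2e-06. Without wild-type eye replicate 3 the ratios were 91.9 (25.3 to 761) and 58.4 (15.99 to 485), and both differences were called as well (adjusted p = 5.3e-07 and 3.8e-06). In the eye alone gnaq did not pass the filter on low counts. It entered the fit of all 18 libraries through the brain libraries, where it is high, so the calls in both genotypes add no support beyond the reads. Between the brain parts gnaq did not differ beyond its spread, although the wild-type libraries did not overlap. The anterior over posterior log2 fold change was 0.40 ± 0.45 in dko fish and 0.64 ± 0.46 in wild-type fish (adjusted p = 0.64 and 0.41).

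The gene gna14 had the opposite distribution at a much lower level. It encodes a Gq class subunit that, in mammals, is known from a narrower set of tissues than Gnaq and Gna11. Dko eyes had 9, 20 and 7 reads (1.81, 4.98 and 1.96 CPM), against 0 reads in each of the 6 dko brain libraries. Wild-type eyes had 4, 20 and 0 reads (1.30, 6.85 and 0 CPM), against 0, 0 and 1 reads in the anterior and 4, 0 and 0 reads in the posterior brain. All dko eye libraries were above all dko brain libraries, while in wild-type fish eye replicate 3 had no read.

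Against a floor of 3 reads over the group, the gna14 level observed in the dko eye was 15.6-fold that of the dko anterior brain. Against the same floor in the dko posterior brain it was 13.4-fold. Both values leave out the counting error of the 36 eye reads, so they are not strict lower bounds. In wild-type fish the pooled eye-to-anterior ratio was 46.4 (counting interval 7.57 to 1908) and the eye-to-posterior ratio 9.86 (3.39 to 39.1). These ratios were 62.1 (10.1 to 2555) and 13.2 (4.54 to 52.4) without wild-type eye replicate 3. The gene did not pass the filter on low counts and was not tested in the fit of all 18 libraries. Without that filter it was called higher in the dko eye than in either brain part (adjusted p = 0.024 and 0.029) and not in the wild-type eye (0.079 and 0.26). The dko call against the anterior brain was lost when any 1 dko anterior brain library was left out (0.058 to 0.068), and that against the posterior brain when any 1 dko posterior brain library was (0.061 to 0.073). Left without wild-type eye replicate 3, gna14 passed the filter. It was then called in the wild-type eye against the anterior brain (adjusted p = 0.029), not against the posterior brain (0.11). With at most 4 reads in any brain library, gna14 could pass the filter through eye libraries only. The dropped library was the wild-type eye with 0 reads, so this call rests on 4 and 20 reads and adds no support. Without wild-type eye replicate 1 instead, gna14 was not called against the anterior brain (adjusted p = 0.058). In the newer RefSeq assembly GRCz12tu, gnaq and gna14 are listed as neighbouring genes.

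**Figure D1:**
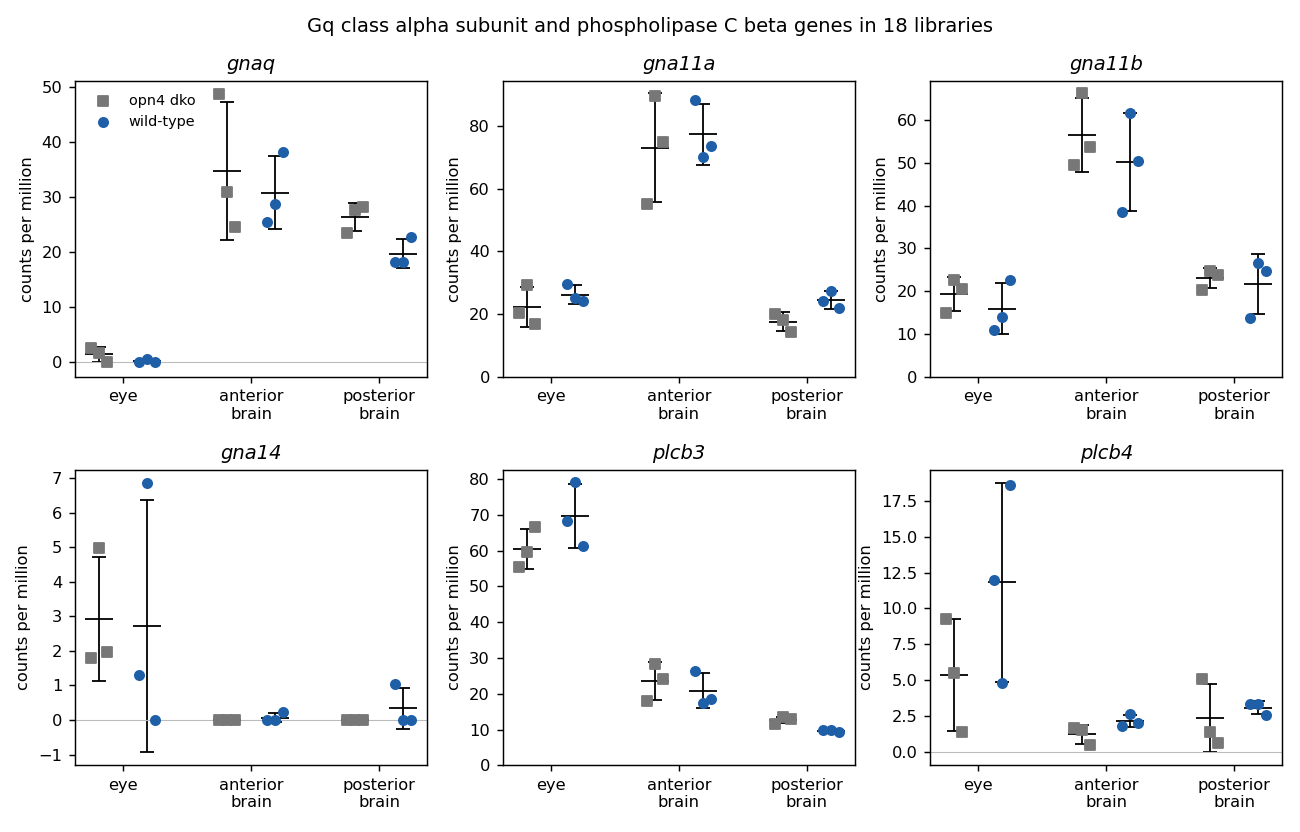
Depth-scaled levels in CPM of the 6 genes (y axes, each with its own scale) in the 3 tissues (x axis), with opn4 dko libraries as grey squares left of wild-type libraries as blue circles, 3 libraries each; the horizontal lines give the mean and the bars the SD. All 6 eye libraries of gnaq lie at or below 2.61 CPM, plcb3 is highest in the eye, and gna11a and gna11b are highest in the anterior brain.

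The 2 copies of Gna11, gna11a and gna11b, were present in all 18 libraries and had their highest levels in the anterior brain. The subunit they encode is the closest relative of Gnaq and couples to the same receptors. For gna11a, dko anterior brains had 55.0, 89.7 and 74.7 CPM and wild-type ones 88.2, 70.2 and 73.5 CPM. The dko eyes had 20.5, 29.4 and 16.8 CPM and the wild-type eyes 29.5, 25.0 and 24.1 CPM. The dko posterior brains had 20.2, 18.04 and 14.2 CPM and the wild-type ones 24.2, 27.4 and 21.9 CPM. All anterior brain libraries thus lay above all others, whereas eye and posterior brain overlapped in dko and in wild-type fish.

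The eye over anterior brain log2 fold change of gna11a was -1.71 ± 0.26 in dko and -1.56 ± 0.26 in wild-type fish (adjusted p = 1.1e-05 and 4.0e-05). The anterior over posterior one was 2.06 ± 0.27 and 1.65 ± 0.26 (adjusted p = 6.1e-06 and 7.5e-05). Eye and posterior brain did not differ beyond their spread (0.35 ± 0.26 in dko and 0.10 ± 0.27 in wild-type fish, adjusted p = 0.33 and 0.81), and on library sizes scaled to actb1 this difference changed sign (-0.68 in dko and -0.87 in wild-type fish, the second called). Left without eye replicate 3, the wild-type values of gna11a were -1.50 against the anterior brain (adjusted p = 0.00013) and 0.15 against the posterior brain (0.71).

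For gna11b, dko anterior brains had 49.5, 66.3 and 53.6 CPM and wild-type ones 38.6, 61.6 and 50.3 CPM. The other tissues ranged from 14.8 to 24.8 CPM in dko and from 11.0 to 26.7 CPM in wild-type fish, so the anterior brain libraries again lay above all others. The eye was lower than the anterior brain in both genotypes (log2 fold change -1.55 ± 0.31 in dko and -1.68 ± 0.33 in wild-type fish), with adjusted p = 0.00034 and 0.00019. The anterior brain was higher than the posterior brain by 1.30 ± 0.31 and 1.21 ± 0.31 (adjusted p = 0.0045 and 0.0086). In wild-type fish that last call was lost on library sizes scaled to actb1 (adjusted p = 0.14) and without anterior brain replicate 2 or posterior brain replicate 1 (both adjusted p = 0.063). Between eye and posterior brain the values were -0.25 ± 0.31 in dko and -0.47 ± 0.33 in wild-type fish, not called with TMM scaling but called on library sizes scaled to actb1 (-1.24 and -1.42). The wild-type eye without replicate 3 stood at -2.01 against the anterior brain (adjusted p = 3.2e-05) and -0.80 against the posterior brain (0.059).

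The mixture of alpha subunit reads differed between tissues. These shares are of reads and not of molecules, since a longer gene yields more reads. In the eye, gnaq made up 3.18% ± 3.29 of the reads of the 4 genes in dko and 0.490% ± 0.849 in wild-type fish (SD, n = 3 each). Its share was 21.5% ± 8.92 and 19.4% ± 3.66 in the anterior brain, and 39.6% ± 2.90 and 30.0% ± 4.18 in the posterior brain, in dko and wild-type fish in this order. The share of gna14 was 6.01% ± 2.15 in dko eyes and 5.94% ± 7.75 in wild-type eyes, and at most 1.80% in any brain library. Together gna11a and gna11b gave most of the reads in every eye library, with gna11a at 48.1% ± 4.62 in dko and 58.6% ± 10.4 in wild-type eyes. In the 2 wild-type eyes other than replicate 3, gnaq had 0% and 1.47%, gna11a 53.7% and 70.5% and gna14 3.10% and 14.7% of these reads.

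Between genotypes, the share of gnaq in the posterior brain did not overlap, with 36.8% to 42.6% in dko and 25.2% to 32.8% in wild-type libraries. Nor did the share of gna11a in the posterior brain, with 21.5% to 31.5% in dko and 31.6% to 42.3% in wild-type libraries. In the eye the share of gna11a ranged from 42.9% to 51.5% in dko and from 51.6% to 70.5% in wild-type libraries, a gap far smaller than the spread. These 3 of 12 gene and tissue combinations reached p = 0.1 in a two-sided exact permutation test (n = 3 each), the smallest p that 3 against 3 can give. After Benjamini-Hochberg adjustment over the 12 exact permutation tests their p was 0.4. With 3 libraries against 3, no share could pass 0.05, so the test can neither show nor exclude a difference.

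**Figure D2:**
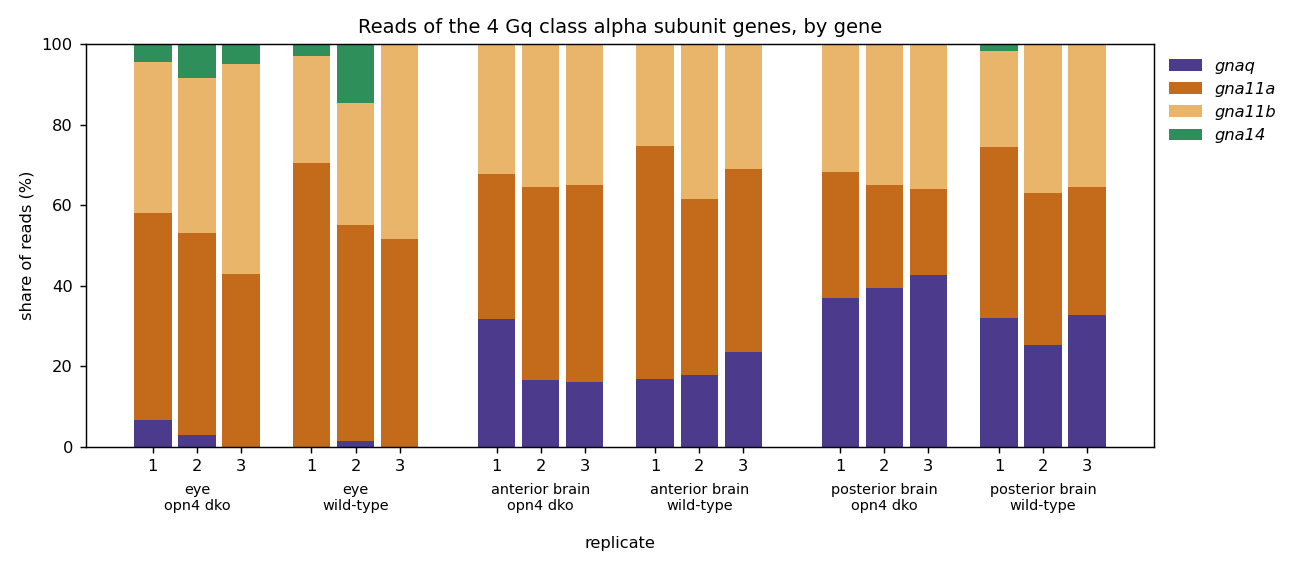
Share of the reads of the 4 Gq class alpha subunit genes that fell on each gene (y axis, %, stacked to 100) in each of the 18 libraries, grouped by tissue with opn4 dko left of wild-type; the number under a bar is the replicate. The share of gnaq is at most 6.57% in any eye library and 16.1% to 42.6% in the brain libraries, and gna14 appears in 5 of the 6 eye libraries.

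Of the enzymes, plcb3 had its highest level in the eye. It encodes a phospholipase C beta that is found in many tissues and responds to Gq alpha as well as to beta-gamma subunits. Dko eyes had 55.6, 59.6 and 66.5 CPM and wild-type eyes 68.4, 79.1 and 61.4 CPM. Dko anterior brains had 17.95, 28.4 and 24.2 CPM and wild-type ones 26.4, 17.4 and 18.6 CPM. Dko posterior brains had 11.7, 13.5 and 12.9 CPM and wild-type ones 9.78, 9.87 and 9.28 CPM. The order eye, anterior brain, posterior brain held with no overlap in both genotypes. Such gaps between tissues, here and for gnaq, gna11a and gna11b, were common. Of 85 tested genes of the cascade list described below, 58 in dko and 53 in wild-type fish did not overlap between eye and anterior brain. Between eye and posterior brain 58 and 49 did not, and between the brain parts 41 and 45. The share over all genes is not given here.

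The eye exceeded the anterior brain in plcb3 by 1.37 ± 0.26 (dko) and 1.75 ± 0.26 (wild-type) on the log2 scale, and the posterior brain by 2.25 ± 0.27 and 2.85 ± 0.28. All 4 differences were called, with adjusted p = 0.00013, 7.5e-06, 3.5e-07 and 1.4e-08. On library sizes scaled to actb1 the first fell short (0.24, adjusted p = 0.61). Without wild-type eye replicate 3 the wild-type values were 1.83 and 2.93 (adjusted p = 3.9e-06 and 6.5e-09). The anterior brain exceeded the posterior brain by 0.89 ± 0.26 in dko and 1.103 ± 0.27 in wild-type fish (adjusted p = 0.021 and 0.0056). The dko call was lost without any of 4 libraries, anterior brain replicates 2 and 3 and posterior brain replicates 1 and 3 (adjusted p = 0.12, 0.063, 0.088 and 0.063). It was also lost without the filter on low counts (adjusted p = 0.051). Both calls were lost with the sequencing lane as a term (0.94 and 1.15, adjusted p = 0.20 and 0.092) and on library sizes scaled to actb1 (adjusted p = 0.097 and 0.18). On lane 6 alone, the log2 ratio of anterior to posterior was 0.62 in dko and 1.43 in wild-type fish, from 1 library each.

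The other enzyme, plcb4, was sparse, with 2 to 46 reads a library. Its mammalian counterpart is the form found in the brain and retina and, in mouse, the one through which melanopsin acts. Dko eyes had 9.23, 5.48 and 1.40 CPM and wild-type eyes 12.0, 4.80 and 18.7 CPM. The dko anterior brain had 1.67, 1.53 and 0.440 CPM and the wild-type one 1.81, 2.60 and 1.97 CPM. The dko posterior brain had 5.04, 1.35 and 0.626 CPM and the wild-type one 3.35, 3.29 and 2.53 CPM. Wild-type eyes lay above both wild-type brain parts, whereas the dko tissues overlapped.

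Only 1 of the 6 tissue comparisons called plcb4, the wild-type eye against the anterior brain (log2 fold change 2.45 ± 0.88, adjusted p = 0.029). That call was lost without wild-type eye replicate 3 (1.96, adjusted p = 0.094), without eye replicate 1 (0.053) and without any 1 wild-type anterior brain library (0.058 to 0.082), and on library sizes scaled to actb1 (0.14). The dko value was 2.11 ± 0.89 (adjusted p = 0.065), which DESeq2 called (0.027), as it did the wild-type eye against the posterior brain (2.06, adjusted p = 0.029, against 1.93 and 0.079 in edgeR, and 1.45 and 0.22 without replicate 3), and the difference between the genotypes, -0.34 ± 1.27, was not called (without wild-type eye replicate 3 it stood at 0.15). The newer assembly GRCz12tu lists 2 genes, plcb4a and plcb4b, and which of them the row called plcb4 corresponds to was not settled here.

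**Figure D3:**
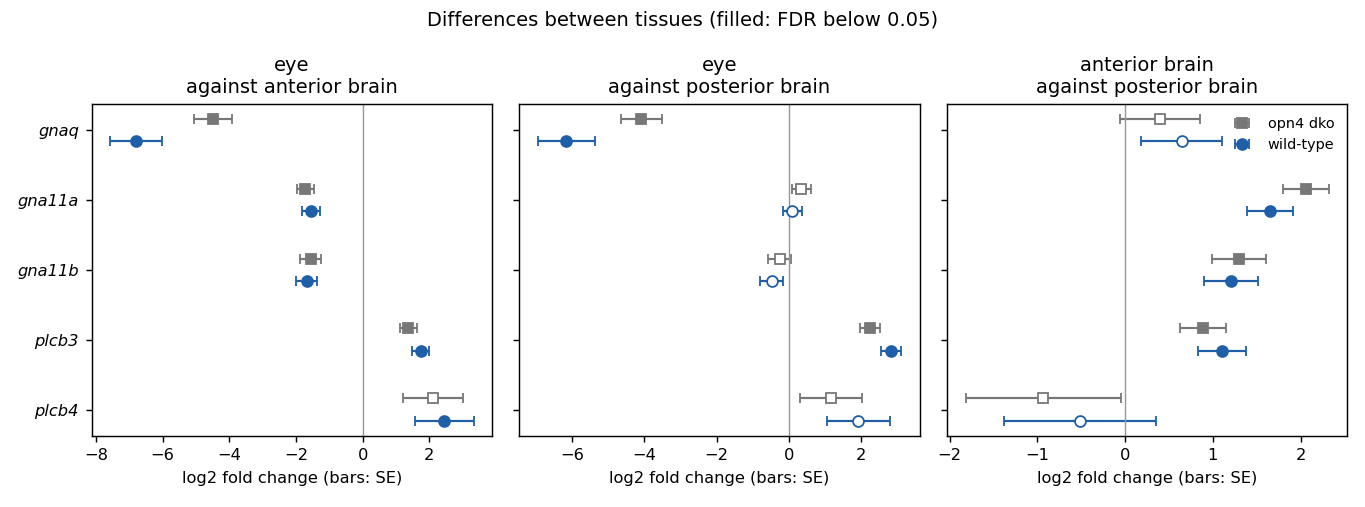
Log2 fold change between tissues (x axes) of the 5 tested genes (rows), with opn4 dko as grey squares above wild-type as blue circles, bars giving the SE and filled symbols an FDR below 0.05; gna14 was not tested. In the comparison of the eye with the anterior brain gnaq, gna11a and gna11b lie left of 0 and plcb3 and plcb4 right of it in both genotypes.

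The tissue comparisons of the dko and of the wild-type fish used separate libraries, although their spread was estimated in a single fit. Between eye and anterior brain, 4 of 5 tested genes were called in dko fish (1 higher, 3 lower) and 5 in wild-type fish (2 higher, 3 lower), against 40% and 43.2% of all 18630 genes tested (20.9% higher and 19.1% lower in dko, 22.3% higher and 21% lower in wild-type fish). The calls in dko fish were all shared with wild-type fish in the same direction. Between eye and posterior brain, 2 of 5 were called in each genotype, gnaq lower and plcb3 higher, against 38.8% of all genes in dko (19.7% higher, 19.1% lower) and 41.7% in wild-type fish (20.6% higher, 21.1% lower). Between anterior and posterior brain, gna11a, gna11b and plcb3 were called higher in each genotype, 3 of 5 against 17% of all genes in dko (9.02% higher, 7.94% lower) and 15.8% in wild-type fish (7.8% higher, 7.97% lower).

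For eye over anterior brain the 5 genes had a median log2 fold change of -1.55 in dko and -1.56 in wild-type fish, beside 0.04 and -0.00 over all genes tested. For eye over posterior brain it was 0.35 and 0.10, beside 0.01 and -0.03. For anterior over posterior brain it was 0.89 and 1.103, beside 0 in both. Scaling to actb1 moved the median of all genes by -1.09 (dko) and -0.79 (wild-type) for eye over anterior brain and by -0.97 and -0.95 for eye over posterior brain, and the members whose sign or call then changed are named with their values.

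None of these genes was called changed between opn4 dko and wild-type fish. In the eye and in the anterior brain 4 of the 6 genes passed the filter on low counts, and in the posterior brain 5 did. The count of calls was 0 in each tissue, beside 0.0254% of 15773 genes in the eye, 1.05% of 15341 in the anterior brain and 0.357% of 15417 in the posterior brain. None had an unadjusted p below 0.05 in edgeR's quasi-likelihood test (0 of 4, 0 of 4 and 0 of 5), and DESeq2, edgeR's exact test and the fit without a filter also called 0.

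The intervals say how large a change these libraries leave possible. In the anterior brain the dko over wild-type log2 fold change of gna11a was -0.09 (95% confidence interval -0.47 to 0.30), that of gna11b 0.16 (-0.27 to 0.58), that of gnaq 0.18 (-0.37 to 0.73) and that of plcb3 0.17 (-0.41 to 0.75). A change by 1 log2 unit lay outside each of these 4 intervals. The signs for gnaq, gna11a and plcb3 differed between lanes: on lane 5 (2 libraries a genotype) the log2 ratios were -0.27, 0.19 and 0.55, on lane 6 (1 library a genotype) 0.93, -0.68 and -0.56. Without dko replicate 1, the dko library on lane 6, gnaq stood at -0.15 and gna11a at 0.09. Too low for the filter, plcb4 had lower levels in all dko than in all wild-type anterior brain libraries and was not called without the filter (-0.79, adjusted p = 0.89). Over all genes tested in the anterior brain, 14.6% did not overlap between genotypes.

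In the posterior brain 3 of the 5 tested genes had libraries that did not overlap between genotypes with TMM scaling, beside 15.6% of all genes tested there. For gnaq, 23.6 to 28.2 CPM in dko libraries stood against 18.2 to 22.8 CPM in wild-type ones (log2 fold change 0.43 ± 0.27, adjusted p = 0.66). For plcb3 the values were 11.7 to 13.5 CPM in dko and 9.28 to 9.87 CPM in wild-type libraries (0.40 ± 0.38, adjusted p = 0.82). For gna11a they were 14.2 to 20.2 CPM in dko and 21.9 to 27.4 CPM in wild-type libraries (-0.49 ± 0.29, adjusted p = 0.62). None of the 3 was called. The others overlapped, gna11b at 0.08 ± 0.30, with a sign that changed on library sizes scaled to actb1 (-0.30), and plcb4 at -0.37 ± 0.90. Since the libraries of the first 3 did not overlap, their direction had to be the same on both lanes, which adds no support. The log2 ratios on lanes 4 and 6 were 0.45 and 0.37 for gnaq, 0.46 and 0.26 for plcb3 and -0.61 and -0.26 for gna11a.

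In the eye, the dko over wild-type log2 fold change was -0.26 ± 0.37 for gna11a, 0.26 ± 0.46 for gna11b, -0.23 ± 0.22 for plcb3 and -1.16 ± 0.84 for plcb4, each with adjusted p = 0.99. All of them overlapped between genotypes, beside 12.7% of all genes tested that did not. Without wild-type eye replicate 3 the values were -0.30, 0.62, -0.29 and -0.63. The sign of gna11b changed on library sizes scaled to actb1 (-0.12), and its interval, -0.76 to 1.27, allows a change of more than 1 log2 unit upward. That of plcb4 ran from -3.01 to 0.69, so the interval does not exclude a large fall of plcb4 in dko eyes. For gnaq, 20 reads in dko eyes against 2 in wild-type eyes gave a pooled ratio of 6.39 (counting interval 1.55 to 56.4), which covers counting error only and without wild-type eye replicate 3 was 4.77 (1.16 to 42.1). The libraries overlapped at 0 reads, and the fit of all 18 libraries did not call the difference (adjusted p = 0.43). Neither gnaq nor gna14 passed the filter in the eye.

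**Figure D4:**
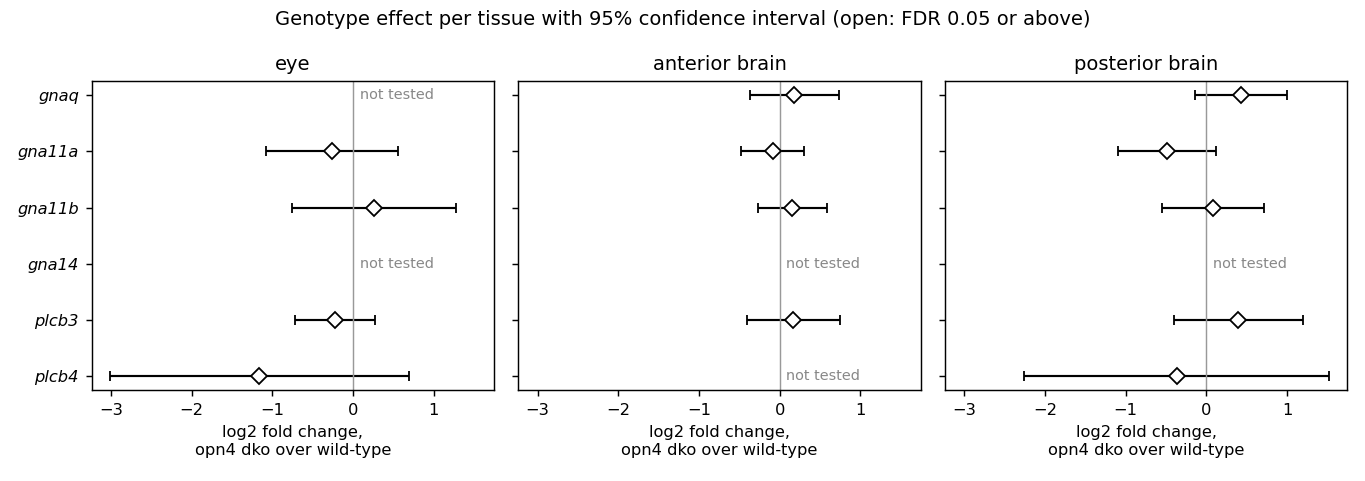
Log2 fold change of opn4 dko over wild-type (x axes) for each of the 6 genes (rows) in the eye, the anterior brain and the posterior brain, 3 libraries a genotype, with bars giving the 95% confidence interval; open diamonds mark an FDR of 0.05 or above. All 13 intervals include 0, and those of plcb4 are the widest.

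The genotype effect was not called different between tissues for any of the 5 tested genes. The lowest unadjusted p was 0.051, for gnaq between eye and anterior brain (difference of log2 fold changes 2.32 ± 1.12, adjusted p = 0.84), and it rests on the 22 eye reads. That difference was 1.94 (adjusted p = 0.88) without wild-type eye replicate 3. Over all genes, 0.344% were called for the effect in the eye minus that in the anterior brain, 0% for the eye minus the posterior brain and 0.00537% for the anterior minus the posterior brain.

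The rest of the cascade was read from a list of 90 genes in 9 roles, of which 85 were tested between tissues. Between eye and anterior brain 47 were called in dko fish (20 higher, 27 lower) and 52 in wild-type fish (22 higher, 30 lower), and 45 were called in both with the same direction. That is 55.3% and 61.2% of those tested, beside 40% and 43.2% of all genes. Between eye and posterior brain the counts were 52 in dko and 43 in wild-type fish (61.2% and 50.6%, beside 38.8% and 41.7% of all genes), with 41 in both. Between the brain parts they were 27 and 24 (31.8% and 28.2%, beside 17% and 15.8%), with 20 in both and 15 of these higher in the anterior brain. No gene was called in opposite directions. The medians of the list for eye over anterior brain were -0.12 in dko and -0.13 in wild-type fish. Without wild-type eye replicate 3, the wild-type counts were 46 of 86 (19 higher, 27 lower) for eye against anterior brain and 46 (21 higher, 25 lower) for eye against posterior brain. Here and below, the share of all genes is not given for that fit or for calls shared by both genotypes. Those counts therefore do not show whether the list stands out. The split between higher and lower depended on the scaling. On library sizes scaled to actb1, 9 were higher and 46 lower in the dko eye than in the dko anterior brain, and 14 higher and 40 lower in wild-type fish, beside 1907 higher and 8067 lower of all genes in dko and 2393 and 6848 in wild-type fish. Against the posterior brain they were 14 higher and 37 lower in dko and 12 and 39 in wild-type fish, beside 9378 and 9751 called of all 18630 genes. Between the brain parts 20 and 11 were called, beside 2020 and 1750 of all genes. Each gene of the list that is named below as called in wild-type fish was called in the same direction without wild-type eye replicate 3 and on actb1 sizes.

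Upstream, 3 of the 5 melanopsin receptors were called higher in the eye than in the anterior brain in each genotype (2 in dko fish on actb1 sizes), beside 20.9% and 22.3% of all genes called higher. The eye exceeded the anterior brain in opn4.1 by 6.96 ± 0.43 in dko and 7.58 ± 0.45 in wild-type fish on the log2 scale. Among the other Gq class and phospholipase C beta genes only gna15.1, gna15.2 and PLCB2 were tested. The list held no gene ID for plcb1, which GRCz12tu lists beside plcb4a, so its level was not read. Gna15 is, in mammals, the promiscuous alpha subunit of blood cells. The eyes had 74, 66 and 56 reads of gna15.1 in dko and 15, 26 and 1 in wild-type fish (14.8, 16.4 and 15.6 CPM against 4.86, 8.91 and 0.491 CPM), beside at most 6 reads in any brain library. The genotypes did not overlap, as for 12.7% of all genes tested in the eye, and the difference was not called (1.67 ± 0.79, adjusted p = 0.99). The value of 1 read came from wild-type eye replicate 3, without which the difference was 1.18 (adjusted p = 0.74). In GRCz12tu another gene of this name, gna15.4, is listed beside gna11a. A second gna14 gene, gna14a, had 12, 0 and 2 reads in dko eyes against 0, 1 and 0 in wild-type eyes.

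Of the 15 genes that switch the signal off or fold the alpha subunits (RGS proteins, receptor kinases, arrestins and Ric8), RGS5, which speeds GTP hydrolysis by Gq and Gi subunits, had 719 ± 66.5 CPM in wild-type eyes against 16.6 ± 4.95 CPM in wild-type anterior brains (log2 fold change 5.45 ± 0.28, adjusted p = 3.6e-13; SD of CPM, n = 3 each). The arrestin ARRB1 was lower in the eye, with 5.42 ± 4.06 CPM against 102 ± 10.1 CPM (-4.16 ± 0.52, adjusted p = 5.7e-07). In this role 6 of 15 genes were called in dko (40%) and 9 in wild-type fish (60%), beside 40% and 43.2% of all genes, and 6 in both, 2 higher and 4 lower in the eye.

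Downstream, the IP3 receptors, which release calcium from stores, had 0 of 4 called between eye and anterior brain in dko and 1 in wild-type fish, ITPR3. Of all genes, 40% and 43.2% were called in these comparisons. On actb1 sizes 2 were called lower in both genotypes. The receptor ITPR1 (ENSDARG00000074149) was lower in the wild-type eye than in the posterior brain (-1.46 ± 0.21, adjusted p = 6.0e-06) and lower in the anterior than in the posterior brain (-1.10 ± 0.21, adjusted p = 0.00054). Of protein kinase C, the target of diacylglycerol, 4 of 11 were called lower in the eye than in the anterior brain and 0 higher in each genotype, the same 4 genes, beside 19.1% (dko) and 21% (wild-type) of all genes called lower. The counts were 6 in dko and 4 in wild-type fish without wild-type eye replicate 3, and 7 and 6 on actb1 sizes. On actb1 sizes most called genes of the whole set were also lower in the eye, as given above. With TMM scaling, calls in either direction made up 36.4% of the protein kinase C genes in each genotype. That is below the 40% (dko) and 43.2% (wild-type) of all genes. Against the posterior brain 1 was called higher and 4 lower in each genotype. That is 45.5% of those tested, near the 38.8% (dko) and 41.7% (wild-type) of all genes. PRKCB (ENSDARG00000022254) had 20.6 ± 3.51 CPM in wild-type eyes against 255 ± 38.5 CPM in wild-type anterior brains (-3.64 ± 0.20, adjusted p = 1.2e-12).

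The TRPC channels are the cation channels at the end of the mouse melanopsin cascade. Of 9 tested, 6 in dko and 7 in wild-type fish were called lower in the eye than in the anterior brain, 6 of them in both. In each genotype 1 was called higher. Of all genes, 19.1% (dko) and 21% (wild-type) were called lower and 20.9% and 22.3% higher. Without wild-type eye replicate 3, 6 of 10 were lower in dko and 5 in wild-type fish. Against the posterior brain 2 were called higher and 6 lower in dko fish (88.9% called, beside 38.8% of all genes). In wild-type fish 1 was called higher and 3 lower (44.4% called, beside 41.7% of all genes). TRPC6 (ENSDARG00000067730) had 3 reads in the 3 wild-type eyes against 613 reads in the anterior brains, an anterior-to-eye ratio of 106 (counting interval 36.0 to 514). The brain form trpc5b had 1.45 ± 1.38 CPM in wild-type eyes against 65.1 ± 5.45 CPM in wild-type anterior brains (-5.34 ± 0.50, adjusted p = 6.9e-09). The 1 that was higher was TRPC7 (ENSDARG00000079469), which was also higher than in the posterior brain, with 99.4 ± 25.5 CPM in wild-type eyes against 13.3 ± 3.00 CPM in wild-type posterior brains (2.89 ± 0.39, adjusted p = 2.1e-06).

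Diacylglycerol kinases, which remove diacylglycerol, were called in both directions. Of 9 tested between eye and anterior brain, 2 were higher and 3 lower in dko fish (55.6% called). In wild-type fish 3 were higher and 3 lower (66.7%), beside 40% and 43.2% of all genes. DGKI had 40.6 ± 6.15 CPM in wild-type eyes against 444 ± 18.8 CPM in anterior brains (-3.45 ± 0.17, adjusted p = 1.8e-13). DGKA (ENSDARG00000098175) had 114 reads in wild-type eyes and 0 in the anterior brains, 73.5-fold a floor of 3 reads there, without the counting error of the eye reads. Of the 23 genes that rebuild PIP2, 19 were called between eye and anterior brain in dko (82.6%) and 17 in wild-type fish (73.9%), beside 40% and 43.2% of all genes. In both genotypes 8 were higher and 9 lower in the eye, whereas on actb1 sizes 2 were higher and 12 lower. The lipid kinase PIP4K2C (ENSDARG00000091637) had 21.3 ± 8.94 CPM in wild-type eyes against 0.299 ± 0.346 CPM in anterior brains. Of the 6 genes of IP3 metabolism, 1 was called between eye and anterior brain in each genotype (16.7%), below the 40% and 43.2% of all genes. It was the IP3 kinase ITPKC, higher in the wild-type eye, with 25.1 ± 13.7 CPM against 4.36 ± 1.12 CPM (2.52 ± 0.53, adjusted p = 0.00049). In wild-type fish 5 of the 6 genes had a log2 fold change below 0, in dko fish 1.

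**Figure D5:**
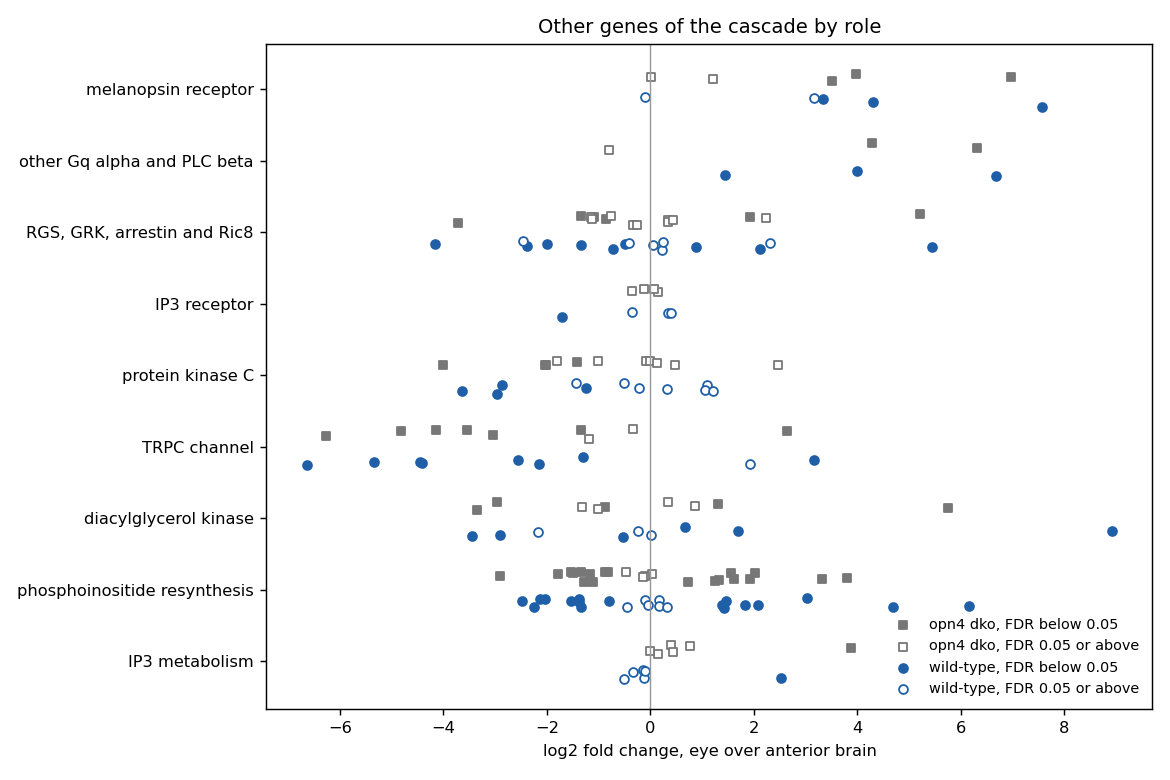
Log2 fold change of eye over anterior brain (x axis) for the 85 tested genes of the cascade list by role (rows), with opn4 dko as grey squares above wild-type as blue circles and filled symbols for an FDR below 0.05. TRPC channels and protein kinase C lie mostly left of 0 (higher in the anterior brain), most melanopsin receptors right of it, and the genes of phosphoinositide resynthesis on both sides with this scaling (on actb1 sizes 2 were called higher and 12 lower in both genotypes).

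Between genotypes 1 gene of the list was called, pitpnaa, in the anterior brain, 1 of 76 tested or 1.32%, beside 1.05% of all genes. It encodes a phosphatidylinositol transfer protein, which carries lipid to membranes where PIP2 is rebuilt. The dko anterior brains had 130, 118 and 28 reads (18.1, 25.8 and 6.15 CPM), against 13, 17 and 20 reads (2.93, 2.60 and 4.38 CPM) in wild-type ones. All dko libraries lay above all wild-type libraries, the third by little (log2 fold change 2.34 ± 0.50, adjusted p = 0.020). Of all genes tested there, 14.6% did not overlap between genotypes.

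In the posterior brain pitpnaa was too low for the filter, with 13, 56 and 17 reads in dko against 2, 1 and 0 reads in wild-type libraries, a pooled ratio of 26.9 (counting interval 8.92 to 133). The paper's supplement already lists pitpnaa among the genes overexpressed in the dko posterior brain, so this rise was known beforehand. The gene was called there without the filter (log2 fold change 4.77, adjusted p = 0.0034). It was also called with the filter and test of the deposited code (4.77, 0.015) and in the fit of all 18 libraries (4.72, 0.027). It was not called in the 5 fits without 1 posterior brain library in which it passed the filter (adjusted p = 0.080 to 0.46). In the eye it stood at 55.6, 73.8 and 60.6 CPM in dko and 67.8, 95.6 and 91.3 CPM in wild-type libraries (log2 fold change -0.45 ± 0.24, adjusted p = 0.99). The anterior brain call was lost without any of 4 libraries, dko replicates 1 and 2 (adjusted p = 0.12 and 0.25) and wild-type replicates 1 and 2 (0.056 and 0.12), with the replicate number as a block (0.055) and in the fit of all 18 libraries (0.053). It held with the lane as a term (2.34, adjusted p = 0.023).

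Sums of photoreceptor and pineal markers were also higher in dko than in wild-type anterior brains. The paper reports asmt, aanat2, tph1a, crx, gnat1 and rcvrna of these lists as overexpressed there, so this rise was known beforehand. The 8 photoreceptor markers summed to 49.9 to 126 CPM in dko anterior brains and 1.07 to 8.80 CPM in wild-type ones, with 2 and 3 of the 8 at 0. The 4 pineal markers summed to 50.6 to 114 CPM in dko and 5.25 to 6.09 CPM in wild-type anterior brains, with none at 0. Their sums were highest in the eye, at 241 to 349 CPM in dko and 218 to 424 CPM in wild-type libraries, so they do not mark the pineal alone. The 8 markers of the retinal pigment epithelium and pigment cells summed to 87.3 to 164 CPM in dko and 39.7 to 57.6 CPM in wild-type anterior brains. The paper reports rpe65a, which is in this list, as overexpressed there and as expressed in the pineal. This rise was thus known beforehand in part, and the list does not mark pigment epithelium alone. In the posterior brain the photoreceptor markers summed to 2.88 to 46.3 CPM in dko and 0.281 to 1.56 CPM in wild-type libraries, with 2 and 6 at 0, and the pineal markers to 6.48 to 43.9 CPM in dko and 6.93 to 7.72 CPM in wild-type libraries. The 6 lens markers summed to at most 0.139 CPM in dko and 1.07 CPM in wild-type anterior brains. The part of these cells in the pitpnaa difference was not tested.

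Among themselves, gna11a and gna11b had the most similar profiles over the 18 libraries (Pearson r of log2 CPM 0.80), and gnaq and plcb3 the most opposed (-0.85). These are descriptions over points that share 3 tissues. Of all genes with a symbol, those closest to gnaq were MCF2L (r = 0.98) and FXYD6 (0.98), to gna11a TIMP2 (0.96) and EIF4G2 (0.95), to gna11b the PRKCB copy ENSDARG00000008723 (0.92) and atp6ap1a (0.92), to plcb3 tbc1d10aa and ptp4a3b (both 0.98), and to plcb4 dnajc5gb (0.85) and rrbp1b (0.83). For gna14, nlrc10 and si:cabz01007794.1 came closest (both 0.94), over counts that were mostly 0. The ratio of gna11b to gna11a reads was 1.35 ± 0.33 in dko posterior brains and 0.889 ± 0.292 in wild-type ones, 0.786 ± 0.1004 and 0.667 ± 0.221 in the anterior brain, and 0.904 ± 0.271 and 0.625 ± 0.288 in the eye (dko first, SD, n = 3 each), with overlapping libraries in each tissue. Reads that fit both copies may have been lost to the filter on mapping quality, so the split between these close copies is uncertain.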

How the data were processed

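RNA-seq of 18 libraries (opn4 dko and wild-type eye, anterior brain and posterior brain, 3 pools of 3 fish each) was analysed from the deposited table of read counts. Per the deposited commands, the authors mapped single reads with HISAT to the zebrafish genome GRCz10 and counted reads per gene, over whole gene bodies, with featureCounts (strand setting 2, mapping quality of at least 20, Ensembl release 86). The methods of the study name another mapper, NextGenMap. The labels do not state whether the library kit kept strand, so reads of antisense or overlapping genes may be assigned to either, and overlaps on GRCz10 were not checked. The submitters' processing notes name edgeR 3.9. The 18 libraries held 2186880 to 6946550 counts.

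Counts were tested with edgeR 4.0.16 in R 4.3.3: TMM scaling, filterByExpr (minimum count 10, total 15), quasi-likelihood test, prior count 0.125. Genotypes were compared in 1 fit per tissue (3 against 3), tissues and interactions in a fit of all 18 libraries. Benjamini-Hochberg adjustment covered every gene in a fit, with a threshold of 0.05. CPM used TMM library sizes of the 18 libraries. SE is the absolute log2 fold change divided by the square root of F. Replicates differed by more than counting noise (chi-square per degree of freedom 7.41 to 22.0). Intervals of pooled reads cover counting error only, and comparisons with a floor leave out the counting error of the higher group. PCR duplicates were not told apart.

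The 6 genes, the cascade list and the marker lists were chosen with earlier results of these data known. Of 108 listed symbols 76 were found, giving 90 gene IDs. Symbols came from a table of gene names without regard to case, and a symbol with no match was looked up without its final letter. Named genes of the list were those called between genotypes and, per role and tissue comparison, up to 2 called genes with the largest change. For each of the 6 genes the 2 most similar profiles were named. Alternatives were other library sizes (RLE, upper quartile, actb1), the filter left out or raised to 10 counts in each library, DESeq2 1.42.0, edgeR's exact test, a replicate block, other thresholds, other sets of libraries and each library left out. A lane term, the filter and test of the deposited code, and the cascade list and read shares without wild-type eye replicate 3, and the list on actb1 sizes, were added after seeing the data. Sequences were not used here. The scripts were tested on simulated data.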

Additional observations from a re-analysis of the deposited data

How the results depend on the processing

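Numbers of called genes kept within 1.5 times their value under all alternatives run, with these exceptions. Requiring 10 counts in every library removed gnaq, gna14 and plcb4 from the tissue fits and left 3 calls for the wild-type eye against the anterior brain and 1 for the eye against the posterior brain in dko and in wild-type fish. Scaling to actb1 gave 4 calls for the wild-type eye against the posterior brain and 1 for the wild-type anterior against posterior brain. Counts over all genes moved more. Between genotypes (eye, anterior, posterior brain) they were 4, 161 and 55, against 30, 262 and 144 with DESeq2, 17, 272 and 159 with the exact test, 16, 355 and 226 without a filter, 16, 284 and 139 with the filter and test of the deposited code, and 17, 125 and 160 with actb1 scaling. The fit of all 18 libraries gave 34 in the eye and 18 in the posterior brain, and an FDR of 0.01 gave 94 in the anterior and 18 in the posterior brain. Between tissues, 10 counts in every library gave 4386 and 4563 calls for the eye against the anterior brain (dko, wild-type; otherwise 7455 and 8056) and 4409 and 4504 against the posterior brain (7233 and 7777). Between the brain parts (3159 and 2938) actb1 scaling gave 2020 and 1750, an FDR of 0.01 gave 1980 and 1781, and a fit of the 6 dko libraries 4795. The 3 interactions had 64, 0 and 1 calls, against 114, 22 and 27 without a filter, 99, 18 and 26 with DESeq2, 76, 5 and 6 with actb1 scaling, 3, 0 and 0 with 10 counts in every library, and 30, 0 and 0 at an FDR of 0.01. Leaving out 1 library moved the counts over all genes by over 1.5 times in these cases. Between genotypes the eye gave 2 without replicate 2 of either genotype and 8 once wild-type replicate 3 was dropped. The anterior brain gave 85 without its dko replicate 1, and the posterior brain 17, 26 and 21 without wild-type replicates 2 and 3 and dko replicate 3. The interaction of eye and anterior brain gave 37 and 39 without anterior brain wild-type replicate 2 and dko replicate 1. That of eye and posterior brain gave 9, 1 and 12 without eye wild-type replicates 1 and 2 and posterior brain dko replicate 1, and that of the brain parts 0 to 8, the 8 without anterior brain dko replicate 3.

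Same-numbered dko and wild-type libraries did not deviate together (correlations -0.02 to 0.04 in the anterior brain), although they shared a sequencing lane. Eyes and brain were taken from the same heads, so same-numbered libraries of different tissues may share fish, which the paper does not state. Their largest correlations lay between anterior and posterior brain, at 0.052 to 0.076 in dko and 0.021 to 0.122 in wild-type fish. With the replicate block the calls among the 6 genes numbered 0 in each genotype comparison and interaction, 4 and 5 for the eye against the anterior brain in dko and wild-type fish, 2 and 2 for the eye against the posterior brain, and 3 and 3 between the brain parts.

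Signs changed with actb1 scaling for gna11b between genotypes in the eye (-0.12) and posterior brain (-0.30), for gna11a between eye and posterior brain (-0.68 in dko, -0.87 in wild-type fish, called), and for the interactions of gna11b between eye and anterior brain (-0.23) and of plcb3 between the brain parts (0.14). Leaving out 1 library at a time gave 0 calls in the genotype and interaction comparisons, 4 to 6 and 4 to 5 for the eye against the anterior brain (dko, wild-type), 2 to 3 and 2 to 2 for the eye against the posterior brain, 2 to 3 in each genotype between the brain parts, and 3 to 4 non-overlapping read shares. Among members, leave-one-out values spanned 0 between genotypes for gnaq (-0.15 to 0.38) and gna11a (-0.26 to 0.085) in the anterior and gna11b (-0.16 to 0.26) and plcb4 (-1.62 to 0.079) in the posterior brain, and between tissues for gna11a in the wild-type eye against the posterior brain (-0.0035 to 0.18) and plcb4 between dko brain parts (-1.38 to 0.33). In the interactions they did so between eye and anterior brain for gna11a (-0.41 to 0.016), gna11b (-0.079 to 0.45) and plcb4 (-0.98 to 0.15), between eye and posterior brain for gna11a (-0.00023 to 0.41) and plcb4 (-1.40 to 0.51), and between the brain parts for gna11b (-0.093 to 0.33) and plcb4 (-0.86 to 0.85). The cause was not tested. Depth limits gnaq in wild-type eyes (2 reads) and gna14 in dko brains (0 reads).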
